A study of Mus musculus with 6 samples.

Results

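Cytosolic heat shock proteins are the chaperones that keep proteins folded in the cytosol and nucleus. The 10 genes described here are the transcription factor Hsf1 and the chaperone genes Hspa1a, Hspa1b, Hspa8, Hsp90aa1, Hsp90ab1, Hsph1, Dnajb1, Hspb1 and Hspb8. They were picked by symbol, not by a cut on measured values, but with earlier results of these data known. All 10 of 10 were found among the 22984 genes of the deposited table. RNA was sequenced from mouse bone marrow mesenchymal stem cells of genotype Grx2-/- (3 libraries) and Grx2+/+ (3 libraries), and the comparison asks what loss of Grx2 does to the transcriptome. Grx2 is glutaredoxin 2, a mainly mitochondrial enzyme that reduces disulfides and glutathionylated proteins, encoded by Glrx2. The labels give no strain, age, passage, culture treatment or way of making the knockout, and do not say whether the 3 libraries of a genotype came from separate animals or cultures. The p-values below therefore measure only the spread between these libraries, which may be technical.

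When proteins misfold, HSF1 is released from inhibitory chaperones, forms a trimer and switches on the genes of inducible chaperones. HSP70 proteins bind exposed hydrophobic stretches in a cycle driven by ATP: HSP40 partners such as DNAJB1 deliver the client and start hydrolysis, and HSP110 proteins such as HSPH1 exchange the nucleotide and release it. HSP90 acts later in folding, on kinases and steroid receptors, and small heat shock proteins hold unfolded proteins without using ATP.

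Values are FPKM as the authors deposited them, fragments per kilobase of gene scaled to sequencing depth. Depth worked back from the values was 40797879 to 41794919 reads per library. Glrx2 was at 0.0046, 0 and 0 FPKM in Grx2-/- replicates 1 to 3 (1, 0 and 0 reads), against 3.57, 3.74 and 3.54 FPKM in Grx2+/+ replicates 1 to 3 (756, 800 and 761 reads). Of 10 mesenchymal stromal markers, 4 rose (Pdgfra, Thy1, Cd44 and Ly6a), 5 fell (Pdgfrb, Lepr, Eng, Nt5e and Itgb1) and Cxcl12 did not pass, and they summed to 1081 to 1168 FPKM in Grx2-/- libraries and 776 to 786 FPKM in Grx2+/+ libraries. Lepr was at 0.030 to 0.038 FPKM in Grx2-/- libraries and at 3.42 to 4.48 FPKM in Grx2+/+ libraries. Transcripts used as markers of other cell types were found too. The summed level of 10 neutrophil markers was 4.38 to 6.79 FPKM in Grx2-/- libraries and 918 to 2660 FPKM in Grx2+/+ libraries, and that of 10 macrophage markers was 2422 to 3284 FPKM in Grx2-/- libraries and 1474 to 1598 FPKM in Grx2+/+ libraries. Of 8 neutrophil markers tested all 8 fell, with Retnlg and Ly6g at 0 in all Grx2-/- libraries, and of 10 macrophage markers 9 rose. Endothelial markers summed to 12.8 to 13.2 FPKM in Grx2-/- and 31.5 to 37.4 FPKM in Grx2+/+, smooth muscle markers to 879 to 1428 FPKM in Grx2-/- and 2635 to 2885 FPKM in Grx2+/+, and skeletal muscle markers to 3.82 to 6.33 FPKM in Grx2-/- and 7.08 to 62.7 FPKM in Grx2+/+, highest in Grx2+/+ replicate 2. All 5 endothelial and all 4 smooth muscle markers tested fell, as did 4 of 6 skeletal muscle markers. All 6 osteoblast markers tested fell too, with a median log2 fold change of -3.57, and the 8 listed summed to 618 to 655 FPKM in Grx2-/- libraries and 1407 to 1569 FPKM in Grx2+/+ libraries. These bulk libraries cannot show which cells carried these markers, nor tell fewer cells of a type from less RNA per cell. The part of cell types in the results below was not tested.

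The heat shock genes did not move as 1 block. In Grx2-/- libraries Hspb8, Hsph1, Hspa8 and Dnajb1 were higher, Hspb1, Hsp90aa1 and Hsf1 were lower, and Hspa1a, Hspa1b and Hsp90ab1 did not pass. Each of 11083 genes with a mean of at least 1 FPKM was tested with limma on log2(FPKM + 1), a scale that understates changes of low genes, at adjusted p under 0.05, and all 10 members passed that filter. The 4 members that rose stand beside 42.7% of all tested genes that rose, and the 3 that fell beside 24.6% that fell, so as a group they changed about as often as other genes, of which 67.4% changed in either direction. Groups did not overlap for 8 members, with Grx2-/- above in 4 and below in 4, beside 73.1% of all tested genes without overlap, 45.7% with Grx2-/- above and 27.4% below. Their median log2 fold change was 0.079, against 0.085 for all tested genes. Single values ran from -1.28 to 1.56, which are the 2.42 and 97.4 percentiles of all tested fold changes.

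**Figure D1:**
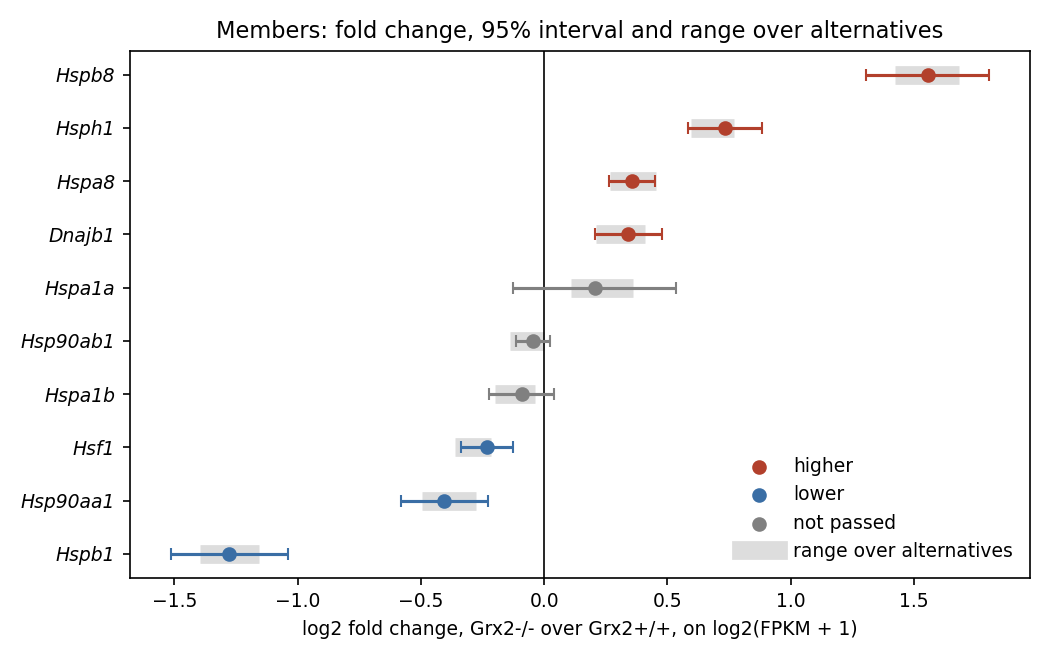
Log2 fold change of each member, Grx2-/- over Grx2+/+, on the log2(FPKM + 1) scale (points, coloured by call), with limma's 95% interval (thin bars) and the range over 18 alternative analyses, or 16 for Hspa1a and Hspa1b (grey bands). Hspb8 at 1.56 and Hspb1 at -1.28 stand at the ends, and the intervals of Hspa1a, Hspa1b and Hsp90ab1 cross 0.

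The summed level of the 10 genes was 2094, 2013 and 2016 FPKM in Grx2-/- replicates 1 to 3 and 1876, 1925 and 1876 FPKM in Grx2+/+ replicates 1 to 3. This was 0.513% to 0.550% of all FPKM in Grx2-/- libraries and 0.500% to 0.507% in Grx2+/+ libraries. Hspa8 and Hsp90ab1 alone made up 86.1% to 88.2% of the sum in Grx2-/- and 83.2% to 84.3% in Grx2+/+, so the total mostly follows these constitutive genes. By mean FPKM they ranked 63 and 69 among the tested genes, Hsp90aa1 ranked 357, and Hspa1a was at the 8.1 percentile of all tested genes.

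**Figure D2:**
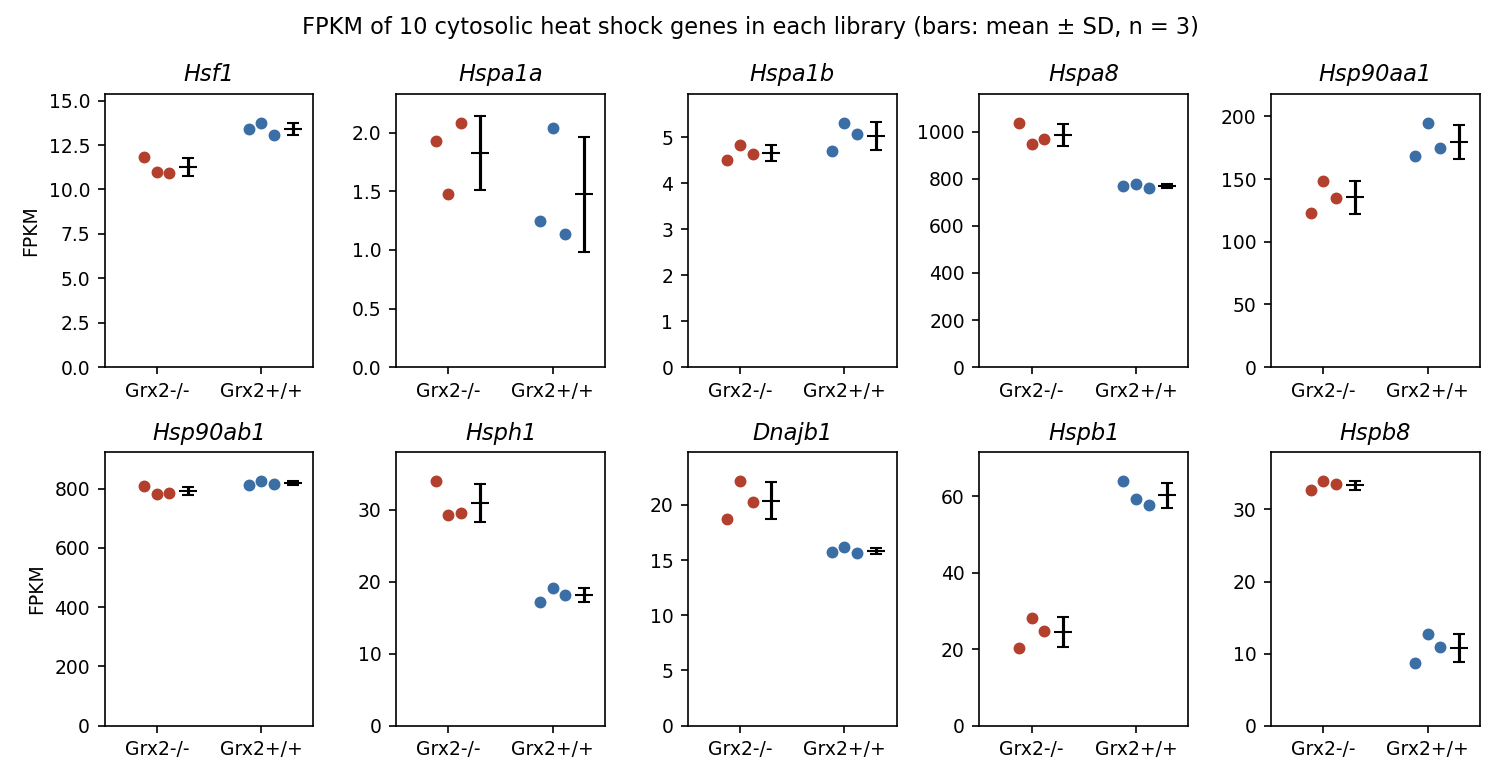
FPKM of the 10 members in each library (points, replicates 1 to 3 from left to right) with mean ± SD (n = 3 libraries per genotype). Each vertical axis starts at 0 and has its own scale. The groups overlap for Hspa1a and Hspa1b only, and Hsp90ab1 shows the narrowest gap of the 8 that do not overlap.

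The 250 bases before the annotated start were searched because HSF1 binds inverted repeats of the unit NGAAN, the heat shock element. Parts of these windows are printed below. RefSeq windows on GRCm38.p6 matched 6 members, not Hsf1, Hspa8, Hsp90aa1 or Hsp90ab1. The 2-unit forms GAANNTTC and TTCNNGAA, each the same on both strands, stood in the windows of 4 of these 6 members and in 12.8% of all 32851 windows of that length. The 3-unit heat shock element in the same spacing, which contains the short forms, was in no member's window and in 0.466% of all windows, both strands searched. Capitals mark the 2-unit matches in the stretches below, each given 5′ to 3′ on the gene's strand (minus for Hspa1a, Hspa1b, Hsph1 and Hspb8, plus for Hspb1). They lie at chr17:34972223-34972290 for Hspa1a, chr17:34959305-34959372 for Hspa1b, chr5:149636337-149636399 for Hsph1, chr5:135887772-135887859 for Hspb1 and chr5:116422865-116422964 for Hspb8.
Hspa1a: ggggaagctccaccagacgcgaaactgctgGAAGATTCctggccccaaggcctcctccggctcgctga
Hspa1b: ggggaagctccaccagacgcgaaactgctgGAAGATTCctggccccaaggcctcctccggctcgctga
Hsph1: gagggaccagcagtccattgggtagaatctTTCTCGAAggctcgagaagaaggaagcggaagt
Hspb1: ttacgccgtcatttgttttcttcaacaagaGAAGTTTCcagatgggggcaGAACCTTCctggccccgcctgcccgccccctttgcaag
Hspb8: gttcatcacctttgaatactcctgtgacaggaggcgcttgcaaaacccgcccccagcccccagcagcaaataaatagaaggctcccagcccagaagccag
The printed stretches of Hspa1a and Hspa1b have the same letters, and their full windows match at 247 of 250 positions. Matches began 104 bases before the start in Hspa1a and Hspa1b, 33 bases before the first of its 2 annotated starts and 54 before the other in Hsph1, and 117 and 97 bases before it in Hspb1. For Hspb8 the last 100 bases before the start are printed, and neither its window nor those of Dnajb1 held a match. These exact letters did not sort with direction. Of the genes with a match Hsph1 rose, Hspb1 fell and Hspa1a and Hspa1b did not pass, while Hspb8 and Dnajb1, without one, rose. Only exact letters within these windows were searched, so an element with a mismatch or outside them would be missed. Binding of HSF1 to these genes was not tested.

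Hsf1, the master regulator of the cytosolic heat shock response, was lower in Grx2-/- cells. It was at 11.8, 11.0 and 10.9 FPKM in Grx2-/- replicates 1 to 3, against 13.4, 13.7 and 13.1 FPKM in Grx2+/+ replicates 1 to 3. All 3 Grx2-/- libraries lay below all Grx2+/+ libraries, as 27.4% of tested genes do. The means were 11.3 ± 0.499 FPKM in Grx2-/- and 13.4 ± 0.341 FPKM in Grx2+/+ (SD, n = 3 each), a ratio of 0.840, and the log2 fold change was -0.23 ± 0.045 (SE; limma adjusted p = 0.0022). These are messenger levels of a factor that is controlled mainly after translation, so they say nothing of its activity. Of the other HSF genes, Hsf2, which can form mixed trimers with HSF1, fell as well (1.60 ± 0.114 FPKM in Grx2-/- and 2.16 ± 0.113 FPKM in Grx2+/+, limma adjusted p = 0.00394). Hsbp1, a small protein that binds the HSF1 trimer and dampens it, rose by 0.35 ± 0.032 (101 ± 2.71 FPKM in Grx2-/- and 79.4 ± 1.07 FPKM in Grx2+/+). Hsf4, the lens factor, and Hsf5, known from testis, were under the filter, at no more than 0.403 FPKM in Grx2-/- and 0.451 FPKM in Grx2+/+.

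Hspa8, the constitutive HSC70 that folds new chains and uncoats clathrin vesicles, was higher in Grx2-/- cells. It was the most abundant member over all 6 libraries on average, and Hsp90ab1 was above it in all 3 Grx2+/+ libraries. Hspa8 was at 1038, 949.7 and 969.6 FPKM in Grx2-/- replicates 1 to 3, against 769, 777 and 762 FPKM in Grx2+/+ replicates 1 to 3. The groups were well apart, and the Grx2+/+ libraries agreed closely, with a coefficient of variation of 0.974% against 4.70% in Grx2-/-. The log2 fold change was 0.36 ± 0.040, a ratio of means of 1.28 (limma adjusted p = 9.25e-05). RefSeq places the small nucleolar genes Snord14c, Snord14d and Snord14e inside this gene, and their reads cannot be told apart from it without a stated strand and feature setting. Of its 100-base stretches, 63.4% also occur in transcripts of other genes in GENCODE M21, none of them another member, so its level depends on how shared reads were counted, which is not given in the sources used here.

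Hspa1a and Hspa1b, the adjacent stress-inducible HSP70 genes with nearly the same coding sequence, were low in every library and did not pass. Hspa1a was at 1.92, 1.48 and 2.08 FPKM in Grx2-/- replicates 1 to 3 (225, 170 and 239 reads), against 1.24, 2.04 and 1.14 FPKM in Grx2+/+ replicates 1 to 3 (142, 235 and 132 reads). Grx2+/+ replicate 2 lay among the Grx2-/- libraries and set the overlap: the coefficient of variation was 17.2% in Grx2-/- and 33.4% in Grx2+/+, the widest of the 10 genes in both genotypes. The log2 fold change was 0.20 ± 0.14, with a 95% interval of -0.12 to 0.53 (limma adjusted p = 0.232), and without Grx2+/+ replicate 2 it was 0.36 (adjusted p = 0.0185). That library also had the highest summed skeletal muscle and neutrophil markers. Hspa1b was at 4.50, 4.83 and 4.63 FPKM in Grx2-/- replicates 1 to 3, against 4.70, 5.31 and 5.08 FPKM in Grx2+/+ replicates 1 to 3, and its groups overlapped too. Its log2 fold change was -0.09, with an interval of -0.22 to 0.04 (limma adjusted p = 0.184). With another scaling of the libraries this fall passed, at -0.17 with median-of-ratios scaling (adjusted p = 0.0236) and -0.20 with quantile normalization (adjusted p = 0.0103).

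The split of reads between these genes is uncertain, since 47.1% of the 100-base stretches of Hspa1a occur in another member and 49.9% of those of Hspa1b. Added together they gave 6.43, 6.31 and 6.72 FPKM in Grx2-/- replicates 1 to 3 and 5.95, 7.35 and 6.21 FPKM in Grx2+/+ replicates 1 to 3. Grx2+/+ replicate 2 was the highest and Grx2+/+ replicate 1 the lowest of all 6, and the sum had a log2 fold change of 0.00066 ± 0.073 (limma adjusted p = 0.995). The inducible pair made up 0.616% to 0.688% of the summed FPKM of Hspa1a, Hspa1b and Hspa8 in Grx2-/- libraries and 0.767% to 0.938% in Grx2+/+ libraries. So, as counted, the level of inducible HSP70 transcripts stayed under 1% of that of the constitutive gene in every library. The lower share in Grx2-/- comes with the rise of Hspa8. Of the 100-base stretches of Hspa1a, 56.5% occur in 4 other genes, Hspa1b among them, so these shares depend on how shared reads were counted.

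Hsph1, which encodes HSP105, an HSP110-family nucleotide exchange factor of HSP70, had the second largest rise. It was at 33.9, 29.2 and 29.6 FPKM in Grx2-/- replicates 1 to 3, against 17.2, 19.1 and 18.2 FPKM in Grx2+/+ replicates 1 to 3. Even the lowest Grx2-/- library lay well above the highest Grx2+/+ library. The log2 fold change was 0.73 ± 0.065, a ratio of 1.70 (limma adjusted p = 2.51e-05). Relative to Hspa8, whose protein it serves, its FPKM was 3.05% to 3.27% in Grx2-/- libraries and 2.24% to 2.46% in Grx2+/+ libraries. Dnajb1, the stress-inducible HSP40 that hands clients to HSP70, was at 18.8, 22.1 and 20.3 FPKM in Grx2-/- replicates 1 to 3, against 15.8, 16.2 and 15.6 FPKM in Grx2+/+ replicates 1 to 3. Its groups did not overlap either, and its log2 fold change of 0.34 ± 0.058 (limma adjusted p = 0.00109) was close in size to that of Hspa8.

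Further HSP70 and HSP110 genes rose or did not pass. Of 8 further HSP70 and HSP110 genes, 6 were tested, of which 3 rose, 0 fell and 3 did not pass, with a median log2 fold change of 0.10. Beside them, 42.7% of all tested genes rose and 24.6% fell. Hspa12b, a distant HSP70 relative known from endothelium, rose by 0.95 ± 0.080 (2.47 ± 0.108 FPKM in Grx2-/- and 0.796 ± 0.180 FPKM in Grx2+/+). The 8 endothelial markers summed to 12.8 to 13.2 FPKM in Grx2-/- libraries and 31.5 to 37.4 FPKM in Grx2+/+ libraries. A link between them and Hspa12b was not tested. Hspa14, a ribosome-associated HSP70, rose by 0.53 ± 0.056, and Hspa13, a microsomal one, by 0.13 ± 0.045 (limma adjusted p = 0.0328). The rise of Hspa13 did not hold in 7 of the 18 alternatives and its value was -0.011 at lowest. Hspa4, an HSP110-family exchange factor like Hsph1, was at 68.5 ± 2.96 FPKM in Grx2-/- and 64.9 ± 1.88 FPKM in Grx2+/+, and its value of 0.08 did not pass. Hspa4l, a further HSP110 gene, had -0.14 and the testis-enriched Hspa2 had -0.04, neither of which passed. Hspa12a and Hspa1l were under the filter, at 0.621 and 0.093 FPKM on average in Grx2-/- and 0.481 and 0.242 FPKM in Grx2+/+.

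Of 14 other cytosolic HSP40 genes, 3 rose, 2 fell and 9 did not pass (median 0.01). The shares over all tested genes were 42.7% that rose and 24.6% that fell. Dnajc9, a J protein that also chaperones histones H3 and H4, rose by 0.88 ± 0.057 (36.3 ± 1.69 FPKM in Grx2-/- and 19.2 ± 1.38 FPKM in Grx2+/+, limma adjusted p = 4.1e-06). Dnaja2, a general HSP70 partner, rose by 0.14, a call lost under median-of-ratios scaling (0.05, limma adjusted p = 0.207) and quantile scaling (0.01, adjusted p = 0.805). In the same list Dnaja4 fell by 0.36 and the ribosome-bound Dnajc2 by 0.18 on the log2 scale. Of these HSP40 genes, 1 rose and 5 fell under median-of-ratios scaling, against 1 and 7 under quantile scaling. Of 10 HSP70 co-chaperones, 4 rose, 3 fell and 3 did not pass (median 0.08), beside the shares of all tested genes given above. Bag3, the BAG protein that joins HSP70 and HSPB8 in selective autophagy, rose by 0.46 ± 0.043 (46.1 ± 1.01 FPKM in Grx2-/- and 33.3 ± 1.65 FPKM in Grx2+/+). Bag2, an inhibitor of the ubiquitin ligase CHIP, fell by 0.58 on the log2 scale (18.0 ± 0.574 FPKM in Grx2-/- and 27.3 ± 0.389 FPKM in Grx2+/+). Bag5 and Hspbp1, both nucleotide exchange factors, rose by 0.32 ± 0.041 and 0.34 ± 0.051.

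The HSP90 genes differed in how far they moved. Hsp90aa1, the stress-inducible isoform, was at 123, 148 and 135 FPKM in Grx2-/- replicates 1 to 3, against 169, 195 and 175 FPKM in Grx2+/+ replicates 1 to 3. All Grx2-/- libraries were below all Grx2+/+ libraries. The means of 135 ± 12.9 FPKM in Grx2-/- and 179 ± 13.7 FPKM in Grx2+/+ gave a log2 fold change of -0.40 ± 0.077 (limma adjusted p = 0.00191). In GENCODE M21, 47.5% of its 100-base stretches also occur in 3 other genes, so its level is uncertain in the same way as that of Hspa8. Hsp90ab1, the constitutive isoform, was at 809, 784 and 786 FPKM in Grx2-/- replicates 1 to 3, against 813, 825 and 818 FPKM in Grx2+/+ replicates 1 to 3. The groups did not overlap, but the gap was small: the log2 fold change was -0.05, with an interval of -0.12 to 0.02 (limma adjusted p = 0.201). With median-of-ratios scaling it was -0.14 and passed (adjusted p = 0.00572). Hsp90aa1 accounted for 13.2%, 15.9% and 14.7% of the FPKM of both genes in Grx2-/- replicates 1 to 3 and for 17.2%, 19.1% and 17.6% in Grx2+/+ replicates 1 to 3, so the constitutive isoform dominated in every library.

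**Figure D3:**
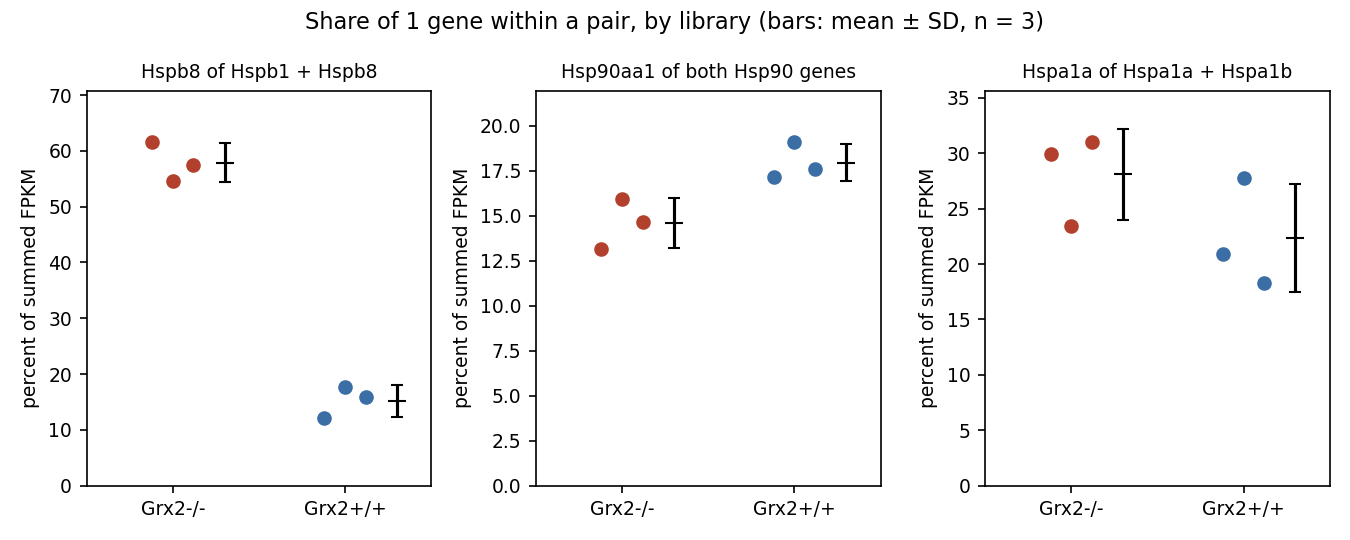
Share of the first-named gene in the summed FPKM of a pair, in percent, by library (points, replicates 1 to 3 from left to right) with mean ± SD (n = 3 per genotype). Hspb8 made up 57.9 ± 3.54% of the pair with Hspb1 in Grx2-/- and 15.2 ± 2.87% in Grx2+/+, Hsp90aa1 had the lower share in Grx2-/-, and the shares of Hspa1a overlapped.

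HSP90 co-chaperones also split. Of 17, 7 rose, 3 fell and 7 did not pass (median -0.03). Beside them, 42.7% of all tested genes rose and 24.6% fell. Ahsa1, the activator of the HSP90 ATPase, rose by 0.42 ± 0.033 (101 ± 0.622 FPKM in Grx2-/- and 75.2 ± 2.33 FPKM in Grx2+/+), and Ppp5c, a phosphatase docked on HSP90, by 0.34 ± 0.043. Unc45a, a myosin chaperone that binds HSP90, fell by 0.34 on the log2 scale. Under median-of-ratios scaling 4 of the 17 rose and 8 fell, under quantile scaling the counts were 4 and 9, and without Grx2-/- replicate 3 the count that rose was 4.

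The small heat shock genes moved in opposite directions and had the largest changes of the 10. Hspb8, known as HSP22, works with BAG3 in clearing misfolded proteins. It was at 32.7, 33.9 and 33.5 FPKM in Grx2-/- replicates 1 to 3, against 8.76, 12.7 and 11.0 FPKM in Grx2+/+ replicates 1 to 3. The Grx2-/- libraries were nearly equal, with a coefficient of variation of 1.81%, and all of them lay far above the highest Grx2+/+ library. The log2 fold change was 1.56 ± 0.11, a ratio of 3.09 (limma adjusted p = 5.81e-06). RefSeq places the predicted gene Gm36841 over this locus, whose reads cannot be told apart from it. Hspb1, known as HSP25 in mouse and HSP27 in human, binds actin and limits its stress-induced breakdown. It was at 20.4, 28.3 and 24.7 FPKM in Grx2-/- replicates 1 to 3, against 63.9, 59.3 and 57.6 FPKM in Grx2+/+ replicates 1 to 3.

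For Hspb1 the highest Grx2-/- library lay far below the lowest Grx2+/+ library. The means were 24.5 ± 3.93 FPKM in Grx2-/- and 60.3 ± 3.26 FPKM in Grx2+/+, with a ratio of 0.406 and a log2 fold change of -1.28 ± 0.10 (limma adjusted p = 1.45e-05). Smooth muscle markers moved the same way, as did all tested neutrophil, osteoblast and endothelial markers and 24.6% of all tested genes. Of 10 macrophage markers, 9 rose. Acta2, smooth muscle actin, was at 458, 756 and 676 FPKM in Grx2-/- replicates 1 to 3, against 1628, 1481 and 1566 FPKM in Grx2+/+ replicates 1 to 3. Grx2-/- replicate 1 was the lowest library for both Hspb1 and Acta2. Among Grx2+/+ libraries the lowest was replicate 3 for Hspb1 and replicate 2 for Acta2. A link between Hspb1 and any of these markers was not tested. In GENCODE M21, 42.7% of the 100-base stretches of Hspb1 also occur in 2 other genes. As a result of the opposite moves, Hspb8 made up 61.6%, 54.5% and 57.5% of the FPKM of Hspb1 and Hspb8 in Grx2-/- replicates 1 to 3, against 12.1%, 17.6% and 16.0% in Grx2+/+ replicates 1 to 3. The more abundant of this pair was thus Hspb8 in all Grx2-/- libraries and Hspb1 in all Grx2+/+ libraries.

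Of 7 other small heat shock genes, 3 passed the filter, of which 1 rose, 1 fell and 1 did not pass. The shares over all tested genes were 42.7% that rose and 24.6% that fell. Cryab, alpha B-crystallin, a chaperone of desmin and other filaments, was at 22.8, 25.3 and 23.9 FPKM in Grx2-/- replicates 1 to 3 and at 16.5, 20.05 and 20.01 FPKM in Grx2+/+ replicates 1 to 3, and rose by 0.33 ± 0.076 (limma adjusted p = 0.00493). Hspb7, the cardiac and muscle form, fell by 0.68 on the log2 scale (1.66 ± 0.349 FPKM in Grx2-/- and 3.24 ± 0.553 FPKM in Grx2+/+). Hspb6, known as HSP20, was at 27.1 ± 2.70 FPKM in Grx2-/- and 24.0 ± 1.19 FPKM in Grx2+/+ and did not pass (0.16, limma adjusted p = 0.0776), but a rise passed without Grx2-/- replicate 1, alone or with Grx2+/+ replicate 2, and with the replicate number as a block. Hspb2, Hspb3, Hspb9 and Cryaa were under the filter, with no library above 0.493 FPKM in Grx2-/- or 0.603 FPKM in Grx2+/+. Of these 7 genes, Cryab and Hspb6 were thus the most abundant in both genotypes.

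Known heat-inducible targets of HSF1 outside the 10 genes moved in both directions. Of 17, 9 rose, 2 fell and 6 did not pass (median 0.10), beside 42.7% of all tested genes that rose and 24.6% that fell, and 11 of the 17 also stand on another list here. Zfand2a, an arsenite- and heat-induced proteasome adaptor, rose by 0.76 ± 0.042 (21.1 ± 0.356 FPKM in Grx2-/- and 12.1 ± 0.519 FPKM in Grx2+/+, limma adjusted p = 1.74e-06). Ubb, a polyubiquitin gene, rose by 0.37 ± 0.029 (391 ± 4.38 FPKM in Grx2-/- and 302 ± 5.12 FPKM in Grx2+/+). Chordc1, an HSP90 co-chaperone, fell by 0.41 on the log2 scale (22.3 ± 1.31 FPKM in Grx2-/- and 29.99 ± 1.99 FPKM in Grx2+/+), and the values of Hspd1 and Hspe1, the mitochondrial chaperonin pair, were -0.10 and -0.01 and did not pass. With median-of-ratios scaling 6 of these targets rose and 6 fell, and with quantile normalization the counts were 6 and 5.

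The ring-shaped cytosolic chaperonin TRiC, which folds actin and tubulin, changed little. Of its 8 subunits, 1 rose, 3 fell and 4 did not pass, between -0.25 and 0.08 (median -0.04). Cct2 was at 166 ± 0.944 FPKM in Grx2-/- and 197 ± 1.16 FPKM in Grx2+/+ (-0.25 ± 0.027), and Cct8 fell by 0.18 and Tcp1 by 0.11 on the log2 scale. The rise of Cct3 (0.08, limma adjusted p = 0.0422) was lost in 8 of 18 alternatives and its sign turned under median-of-ratios scaling (-0.0055), and the fall of Tcp1 was lost without Grx2-/- replicate 3. Of 6 subunits of prefoldin, which passes new actin and tubulin chains to TRiC, 3 rose, 1 fell and 2 did not pass (median 0.15). Beside both complexes, 42.7% of all tested genes rose and 24.6% fell. Pfdn5 rose by 0.39 ± 0.032 (140 ± 3.45 FPKM in Grx2-/- and 106 ± 1.99 FPKM in Grx2+/+), Pfdn6 by 0.23 and Pfdn2 by 0.22, while Pfdn4 fell by 0.24 on the log2 scale. Under quantile normalization the value of Pfdn2 was 0.089 and did not pass (limma adjusted p = 0.088), and that of Pfdn6 was 0.11 and passed. With median-of-ratios scaling 6 TRiC subunits fell.

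**Figure D4:**
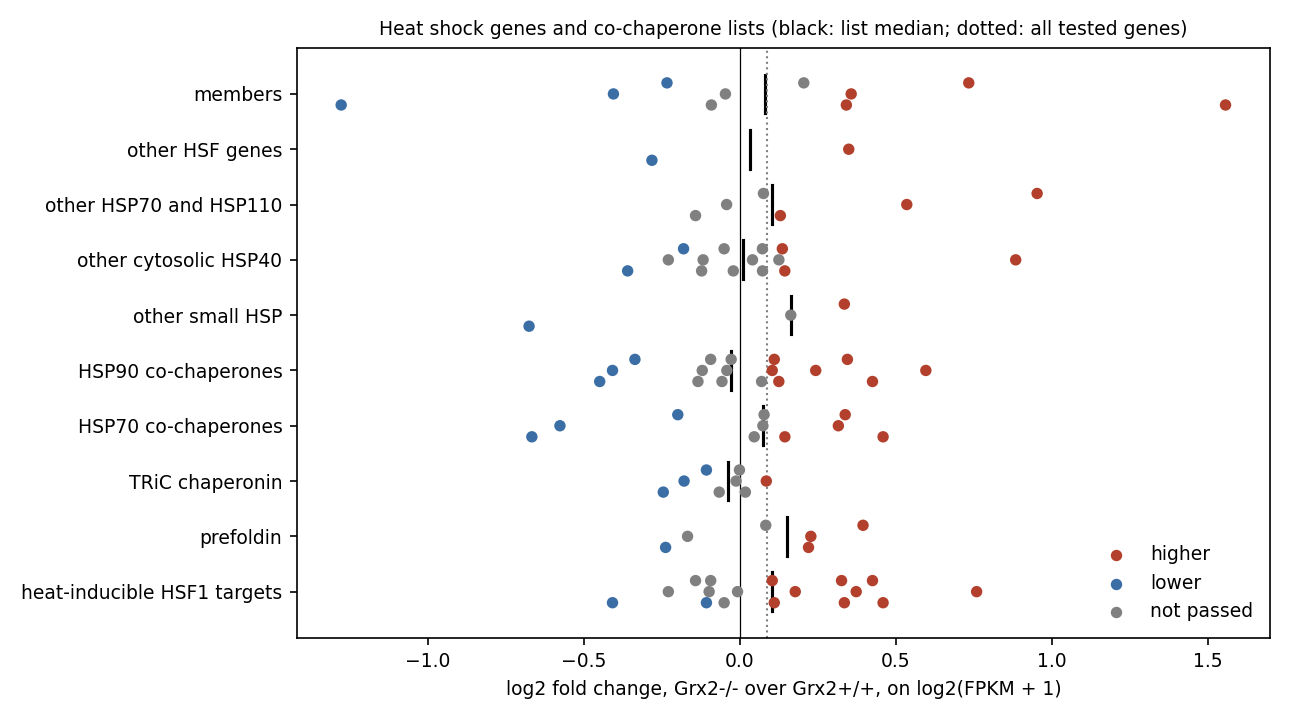
Log2 fold change of each tested gene, Grx2-/- over Grx2+/+, on the log2(FPKM + 1) scale, for the 10 members and 9 related lists (points, coloured by call; black lines, list medians; dotted line, median of all tested genes at 0.085). Points of a list are spread vertically for legibility. Each list holds calls in both directions except the other HSP70 and HSP110 genes, of which 3 were higher and 0 lower.

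Over all 9 lists, 72 different genes were tested, of which 27 rose, 14 fell and 31 did not pass. Beside them, 42.7% of all tested genes rose and 24.6% fell, 67.4% in either direction. The median of the 72 was 0.06 against 0.085 for all tested genes. The calls of 30 of the 41 changed genes were the same in every alternative, and 10 of the 13 changes smaller than 0.2 on the log2 scale were not. The library pattern of 3 members was set beside those of 10376 other tested genes, by the mean absolute difference of centred log2(FPKM + 1) values over the 6 libraries. Closest to Hspb1 were Col10a1, Pdlim7 and Erfe (differences of 0.058 to 0.063), to Hsp90aa1 Phlda1, Exoc5 and Rictor (0.019 to 0.026), and to Hspa1a Tppp3, Il16 and Bbs9 (0.060 to 0.078). This measure includes the difference between genotypes, so genes of like fold change come out close. Log2 fold changes were -1.36 to -1.24 for the genes near Hspb1, -0.41 to -0.39 near Hsp90aa1 and 0.13 to 0.19 near Hspa1a. Shared regulation was not tested.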

How the data were processed

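RNA from 3 Grx2-/- and 3 Grx2+/+ libraries was extracted with TRIzol and made into libraries with the VAHTS Universal V6 kit, per the labels' protocols. The authors deposited 1 table of FPKM. HISAT2, HTSeq, R 3.2.0 and GRCm39 are named in the submitters' processing notes; no source used here gives the other versions, the annotation, filters, strand or handling of shared reads. FPKM corrects for depth and length, not for composition.

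Whole reads were recovered from the FPKM steps for 22981 of 22984 genes (99.99%, tolerance 1e-06 reads), and depths differed by at most 2.44%. FPKM was tested as deposited with limma 3.58.1 (trend, two-sided) in R 4.3.3 as log2(FPKM + 1) for genes with mean FPKM of at least 1, adjusted by Benjamini-Hochberg over all 11083. Genes named are the 10 members, all HSF, HSP70 and small HSP genes, and up to 4 of each other list with the smallest adjusted p; Chordc1, Hspd1, Hspe1 and the single marker genes were chosen after their values were seen. 1 gene that the rule names is not reported here. Members and lists were chosen with earlier results of these data known. Sequences are from RefSeq (GRCm38.p6), transcripts from GENCODE M21, and figures were drawn with matplotlib 3.10.9. Alternatives were pseudocounts 0.1 and 0.01, no filter, a minimum mean of 5 FPKM, scaling by median of ratios or quantiles, limma without trend or robust (statmod 1.5.0), a replicate block, voom on the reads, each library left out, 2 left out together, and Hspa1a with Hspa1b added.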

Additional observations from a re-analysis of the deposited data

How the results depend on the processing

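The 7 changed members kept direction and call in all 18 alternatives, and no member changed sign in any. Hspb8 ran from 1.42 to 1.68, Hspb1 from -1.40 to -1.16, Hsph1 from 0.60 to 0.77, Hspa8 from 0.27 to 0.45, Dnajb1 from 0.21 to 0.41, Hsf1 from -0.36 to -0.21 and Hsp90aa1 from -0.50 to -0.28. With median-of-ratios scaling 5 members fell, the additional ones being Hspa1b and Hsp90ab1, and with quantile normalization Hspa1b was added. Without Grx2+/+ replicate 2, alone or with Grx2-/- replicate 1, Hspa1a passed as well (0.36 and 0.33), so leaving out 1 library gave 4 to 5 members that rose and 3 that fell. Quantile normalization moved the median of all tested genes by -0.11, and of all calls 63.5% were higher as deposited, 51.5% with median-of-ratios scaling and 46.4% with quantile normalization. Deviations of same-numbered libraries correlated at 0.11, 0.12 and 0.02, and those of differently numbered libraries at -0.13 to 0.06. Grx2-/- replicates 1 and 2 correlated best with their own number and replicate 3 with Grx2+/+ replicate 2. With 3 libraries per genotype these values cannot decide whether the numbers pair the libraries. With the replicate block 4 members rose and 3 fell, 4771 genes rose and 2791 fell. Calls higher over all genes ran from 3378 of 7432 tested with a mean FPKM of at least 5 to 5499 of 22984 tested with no filter, so the counts have unlike bases. Small HSP that rose were 2 with the block and without Grx2-/- replicate 1, alone or with Grx2+/+ replicate 2, and the lowest counts over the alternatives were 0 for TRiC subunits that rose and 1 for HSF1 targets that fell. At 132 to 239 reads per library, Hspa1a is the member for which counting error limits precision most.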
